A study of Homo sapiens with 12 samples.

Results

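Integrins and laminins, the receptors and one family of ligands through which an epithelial cell is anchored to its matrix, were examined in breast cancer cells given a BET inhibitor, a histone deacetylase inhibitor or both. The genes came from a list of 36 symbols, and a gene was kept when a probe set of the array carried its symbol alone. This left 34 of the 22392 genes with such a probe set, each with a single probe set: 16 integrin alpha subunits, 8 integrin beta subunits and 10 laminin chains. ITGA1, whose probe set carries a further symbol, and LAMA3 were not analysed here. The 4 groups were MDA-MB-231 cells that received DMSO as vehicle, 1 µM JQ1, 3.17 µM mocetinostat (MGCD in the sample labels) or both compounds together at these doses, for 48 h in every group. Each group had 3 replicates on Affymetrix microarrays (Human Gene 2.1 ST), 12 arrays in all, which the study's methods describe as independent biological replicates. MDA-MB-231 is an established triple-negative breast cancer line, JQ1 blocks the BET bromodomain proteins that read acetylated histones, and mocetinostat inhibits class I histone deacetylases. The comparisons ask what each compound does to these transcripts and whether both together do more than either alone. A single line, a single dose of each compound and a single time limit what the groups stand for.

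An integrin is a pair of an alpha and a beta subunit that crosses the plasma membrane, binds matrix outside the cell and is linked to actin inside it through talin, kindlin and other adaptors. The subunits that pair decide the ligand. ITGA6 with ITGB4 binds laminin and builds the hemidesmosome, ITGA5 with ITGB1 is the main fibronectin receptor, and ITGAV with ITGB3, ITGB5, ITGB6 or ITGB8 binds matrix proteins that carry an RGD sequence, among them vitronectin and the latent form of TGF-beta. Laminins are trimers of an alpha, a beta and a gamma chain and form, with type IV collagen, nidogen and perlecan, the basement membrane on which epithelia rest. In breast carcinoma cells these receptors are known for their part in spreading, migration and survival.

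Values are log2 signals summarised by RMA, so a difference of 1 is a 2-fold change, and levels of different probe sets are not compared with each other. The medians of the arrays lay between 3.58 and 3.66. A gene was said to be up- or down-regulated when the limma test gave an unadjusted p under 0.001 and the difference was at least 2-fold, which is the filter named in the study's methods, and each p is given after adjustment over all 53617 probe sets. The free text description of 9 of the 12 samples names another treatment than the title and the source name, which name the same treatment as each other and were used. Of the defining markers, ESR1 and PGR had means of 3.22 ± 0.42 and 3.07 ± 0.12 in the DMSO arrays (SD, n = 3), below the array medians. In DMSO replicate 3 ESR1 read 3.65, just above the median of that array (3.59). VIM read 10.39 ± 0.08 in the DMSO arrays. The 4 mesenchymal markers VIM, AXL, CD44 and CAV1 averaged 10.7 to 10.8 in the DMSO arrays, 10.5 to 10.6 with JQ1, 10.1 to 10.2 with mocetinostat and 9.81 to 9.88 with the combination, where AXL, CD44 and CAV1 were down-regulated and VIM differed by 0.03. The 5 luminal markers averaged 4.41 to 4.57 in the DMSO arrays and 4.03 to 4.06 with the combination, and of them GATA3 was down-regulated by mocetinostat (-1.72) and the combination (-2.02) and EPCAM by JQ1 (-1.66) and the combination (-1.03), while ESR1, PGR and FOXA1 did not pass. The 3 measured endothelial markers averaged 3.14 to 3.38 in the DMSO arrays and 3.23 to 3.30 with the combination, and none passed.

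Few of these genes passed with JQ1, some passed in each direction with mocetinostat, and with the combination more were down- than up-regulated. The counts with JQ1 and the down-regulated count with mocetinostat are near the shares of all genes given beside them. With JQ1, 1 of the 34 genes was up-regulated (ITGB3) and 0 were down-regulated, against 2.14% up and 4.51% down among all 22392 genes. With mocetinostat, 4 were up-regulated (ITGA2B, ITGA7, ITGAX and ITGB3, against 7.08% of all genes) and 2 were down-regulated (ITGB4 and LAMB1, against 5.50%). With the combination, ITGA2B alone was up-regulated (against 7.06%) and 6 genes were down-regulated: ITGA5, ITGA6, ITGAV, ITGB4, ITGB5 and LAMB1 (against 8.11%). The 6 genes are 17.6% of the 34. The median difference of the 34 genes was -0.09 for JQ1, 0.07 for mocetinostat and -0.03 for both compounds together, beside 0.02, -0.01 and -0.00 for all genes. Of the 34 genes 0 passed in all 3 comparisons, which share the same 3 DMSO arrays, and 10 passed in at least 1.

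**Figure D1:**
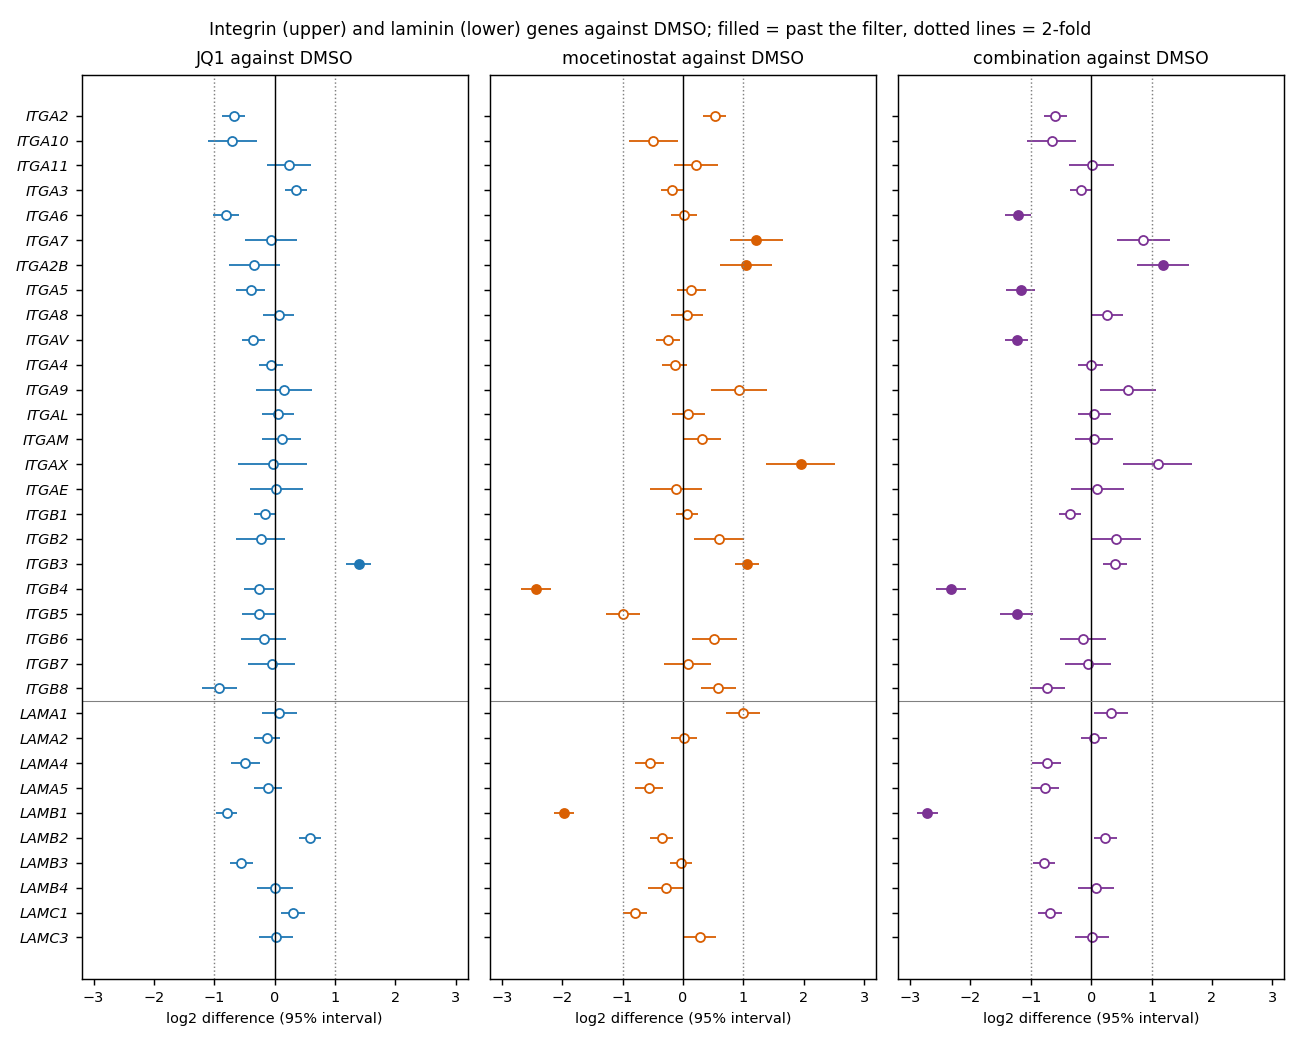
Log2 difference from DMSO (x axis) of the 34 integrin and laminin genes (y axis) in JQ1, mocetinostat and combination arrays, with 95% intervals from limma (n = 3 arrays per group). Filled points passed the filter: 1 gene in the JQ1 panel, 6 in the mocetinostat panel and 7 in the combination panel, where LAMB1 and ITGB4 lie farthest to the left.

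Of the laminin chains, LAMB1, the beta chain of the most widely expressed laminins, was the one down-regulated against DMSO, by mocetinostat and by the combination. The LAMB1 signal was 8.89, 8.81 and 8.81 in the DMSO arrays, 8.10, 7.99 and 8.03 with JQ1, 6.87, 6.84 and 6.88 with mocetinostat, and 6.09, 6.12 and 6.15 with the combination. The 4 groups did not overlap anywhere, and they stood in the order DMSO, JQ1, mocetinostat, combination. LAMB1 was 3.93-fold lower with mocetinostat (log2 difference -1.97, SE 0.08, adjusted p = 5.82e-09) and 6.57-fold lower with the combination (-2.72, SE 0.08, adjusted p = 3.8e-10). With JQ1 the difference was -0.80 (SE 0.08, adjusted p = 1.94e-05), which is 1.74-fold and did not reach the 2-fold limit. In the combination LAMB1 differed by -1.92 from JQ1 (adjusted p = 1.93e-08, past the filter) and by -0.74 from mocetinostat (adjusted p = 5.55e-05, 1.67-fold, not past it).

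LAMC1, the gamma chain that most laminins share, and LAMB2, a beta chain that can take the place of LAMB1, were not down-regulated against DMSO in any group. LAMC1 read 10.02, 10.14 and 10.21 in the DMSO arrays, 10.48, 10.41 and 10.42 with JQ1, 9.24, 9.43 and 9.33 with mocetinostat and 9.40, 9.40 and 9.53 with the combination. The JQ1 arrays were the highest of the 12, and the mocetinostat and combination arrays overlapped each other below the rest. LAMC1 differed by 0.31 with JQ1, by -0.79 with mocetinostat and by -0.68 with the combination from DMSO, and only the contrast of mocetinostat with JQ1 passed, at -1.10 (SE 0.09, adjusted p = 4.12e-06). LAMB2 had a similar order, with 9.39 ± 0.08 under JQ1, 8.80 ± 0.09 under DMSO and 8.45 ± 0.02 under mocetinostat, but with the combination it was 9.04 ± 0.03, above DMSO by 0.23 (adjusted p = 0.0595). LAMB3, the beta chain of the epithelial laminin held by hemidesmosomes, differed by -0.56 with JQ1, by -0.03 with mocetinostat and by -0.78 with the combination (adjusted p = 0.000683, 0.868 and 2.12e-05). LAMA5, an alpha chain of epithelial basement membranes, differed by -0.11, -0.56 and -0.77 in the same order, and none of these reached 2-fold. The other laminin chains, LAMA1, LAMA2, LAMA4, LAMB4 and LAMC3, had means under 4 over the 12 arrays and passed in none of the 7 comparisons; the largest of their differences from DMSO was that of LAMA1 with mocetinostat, 2.00-fold when rounded and just under the limit.

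Of the laminin receptors, ITGB4 and its partner ITGA6 were both down-regulated by the combination, while under the single compounds they differed from DMSO in different groups. ITGB4, the hemidesmosome subunit, whose only known partner is ITGA6, read 9.81, 9.69 and 9.86 in the DMSO arrays, 9.39, 9.62 and 9.58 with JQ1, 7.36, 7.38 and 7.31 with mocetinostat and 7.34, 7.37 and 7.70 with the combination. All 6 arrays that held mocetinostat were below 8, and all 6 without it were above 9. ITGB4 was 5.42-fold lower with mocetinostat (log2 difference -2.44, SE 0.11, adjusted p = 2.38e-08) and 4.98-fold lower with the combination (-2.32, SE 0.11, adjusted p = 2.64e-08). The combination and mocetinostat alone differed by 0.12, with a 95% interval from -0.13 to 0.37.

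ITGA6, the laminin-binding alpha subunit, read 10.90, 11.07 and 10.79 in the DMSO arrays, 10.13, 10.12 and 10.11 with JQ1, 10.85, 10.99 and 10.97 with mocetinostat and 9.64, 9.67 and 9.83 with the combination. Here the mocetinostat arrays lay within the range of the DMSO arrays, the JQ1 arrays below both and the combination arrays below all others. ITGA6 was 2.31-fold lower with the combination than with DMSO (-1.21, SE 0.10, adjusted p = 1.79e-06) and 2.34-fold lower than with mocetinostat (-1.23, adjusted p = 7.66e-06). With JQ1 alone it differed by -0.80 (adjusted p = 0.000125), which is 1.74-fold. ITGA3, the other main laminin-binding alpha subunit of epithelia, pairs with ITGB1 and passed in none of the comparisons, with differences from DMSO of 0.36, -0.18 and -0.17 for JQ1, mocetinostat and the combination.

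ITGA7, the laminin receptor of muscle, had low signals that were higher with mocetinostat. Its readings were 3.84, 3.67 and 3.42 with DMSO, 3.65, 3.44 and 3.66 with JQ1, 5.36, 4.53 and 4.68 with mocetinostat and 4.31, 4.57 and 4.64 with the combination. The JQ1 and DMSO arrays overlapped, and 1 mocetinostat array stood above the other 11. ITGA7 was 2.32-fold higher with mocetinostat (1.21, SE 0.20, adjusted p = 0.000645), and without mocetinostat replicate 1 the difference was 0.96, under the 2-fold limit. When only the DMSO and mocetinostat arrays were fitted, its unadjusted p was 0.00105, so that it did not pass. The difference with the combination was 0.86 (adjusted p = 0.00587).

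**Figure D2:**
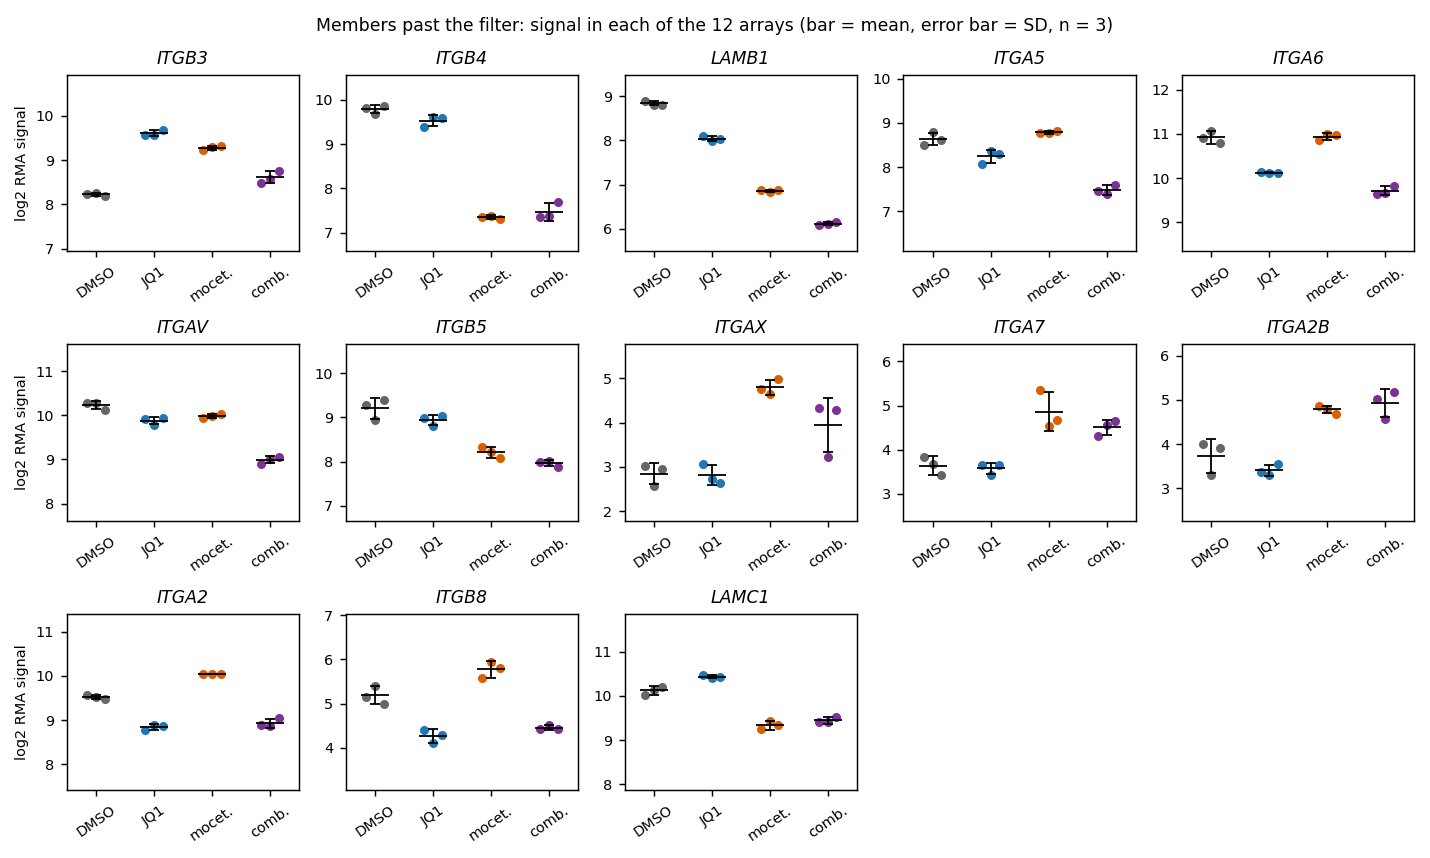
Log2 RMA signal (y axis) in each of the 12 arrays, by treatment (x axis), for the 13 integrin and laminin genes that passed the filter in any of the 7 comparisons; bars are means and error bars SD (n = 3). ITGB4 separates arrays with mocetinostat from those without it, ITGA6 and ITGAV are lowest with the combination, and ITGB3 is highest with JQ1.

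Among the receptors for RGD ligands, ITGAV, ITGA5 and ITGB5 were down-regulated by the combination and by neither compound alone. Of these, ITGB5 fell just short of the 2-fold limit with mocetinostat. ITGB3 was instead up-regulated by each compound alone. ITGAV, the alpha subunit shared by the vitronectin and TGF-beta binding integrins, read 10.28, 10.28 and 10.12 with DMSO, 9.91, 9.79 and 9.93 with JQ1, 9.94, 9.98 and 10.03 with mocetinostat and 8.90, 9.02 and 9.05 with the combination. All combination arrays lay below all other arrays, and the JQ1 and mocetinostat arrays lay just below those with DMSO. ITGAV was 2.36-fold lower with the combination (-1.24, SE 0.09, adjusted p = 6.56e-07), beside differences of -0.35 with JQ1 and -0.24 with mocetinostat. From mocetinostat alone the combination differed by -0.99 (1.99-fold) and from JQ1 by -0.88 (1.85-fold), both under the 2-fold limit.

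ITGA5, the fibronectin receptor subunit, was likewise lowest in all 3 combination arrays. Its signals were 8.51, 8.79 and 8.62 with DMSO, 8.07, 8.36 and 8.30 with JQ1, 8.77, 8.76 and 8.82 with mocetinostat and 7.45, 7.38 and 7.60 with the combination. ITGA5 was 2.25-fold lower with the combination than with DMSO (-1.17, SE 0.11, adjusted p = 6.27e-06) and 2.47-fold lower than with mocetinostat (-1.31, adjusted p = 1.16e-05). JQ1 alone differed from DMSO by -0.40 (adjusted p = 0.0263) and mocetinostat by 0.14 (adjusted p = 0.454), and the mocetinostat arrays overlapped those with DMSO. ITGB1, the beta subunit that pairs with ITGA5 and with most other alpha subunits, passed nowhere: its difference with the combination was -0.36 (95% interval -0.54 to -0.18), with 7.99 ± 0.09 under DMSO and 7.63 ± 0.03 under the combination.

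ITGB5, a partner of ITGAV in vitronectin binding, read 9.27, 8.94 and 9.39 with DMSO, 8.99, 8.81 and 9.03 with JQ1, 8.33, 8.22 and 8.07 with mocetinostat and 7.99, 8.02 and 7.88 with the combination. Arrays with mocetinostat were below those without it, and the combination arrays were the lowest. ITGB5 was 2.35-fold lower with the combination (-1.24, SE 0.13, adjusted p = 1.3e-05), and with mocetinostat alone it was 1.99-fold lower (adjusted p = 9.42e-05), just under the limit. The difference between the combination and mocetinostat, -0.24, had a 95% interval from -0.52 to 0.04.

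ITGB3 was up-regulated by each compound alone and did not pass against DMSO with the combination. This beta subunit pairs with ITGAV and, in platelets, with ITGA2B. It read 8.23, 8.26 and 8.18 with DMSO, 9.57, 9.57 and 9.69 with JQ1, 9.23, 9.29 and 9.32 with mocetinostat and 8.49, 8.58 and 8.76 with the combination. The combination arrays lay between the DMSO arrays and those of either compound, and no 2 groups overlapped. ITGB3 was 2.62-fold higher with JQ1 (1.39, SE 0.09, adjusted p = 1.02e-06) and 2.09-fold higher with mocetinostat (1.06, SE 0.09, adjusted p = 3.89e-06); scaled to ribosomal protein genes, the latter was 0.89 and under the 2-fold limit. With the combination the difference from DMSO was 0.39 (SE 0.09, adjusted p = 0.00646), 1.31-fold and not past the filter. Against JQ1 alone the combination was 2.00-fold lower when rounded (adjusted p = 1.09e-05), just short of the limit.

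ITGA2B, the alpha subunit of the platelet fibrinogen receptor, had low signals, near the median of all probe sets in the DMSO arrays, and was up-regulated by mocetinostat and by the combination. Its readings were 4.01, 3.30 and 3.91 with DMSO, 3.37, 3.30 and 3.54 with JQ1, 4.86, 4.80 and 4.69 with mocetinostat and 5.03, 4.57 and 5.18 with the combination. All 6 arrays with mocetinostat lay above the 6 without it. The differences from DMSO were 1.04 (SE 0.19, adjusted p = 0.00163) and 1.19 (SE 0.19, adjusted p = 0.000539). Both lost the filter without DMSO replicate 2 (0.82 and 0.97) and when scaled to ribosomal protein genes (0.88 and 0.87), and the first also without mocetinostat replicate 1 or 2. Against JQ1, ITGA2B was 2.88-fold higher with the combination (1.52, adjusted p = 0.000143) and 2.60-fold higher with mocetinostat (1.38, adjusted p = 0.000267). The platelet markers PF4, PPBP, GP9 and GP1BA averaged 3.23 to 3.60 in the DMSO arrays and 3.56 to 3.67 with mocetinostat, and 0 of the 4 passed against DMSO. Among them PPBP was 2.04-fold higher with mocetinostat (1.03, adjusted p = 0.0407), short of the filter, and its arrays overlapped those with DMSO. PF4, GP9 and GP1BA differed by -0.20, -0.01 and 0.02 with mocetinostat. The part of these markers in the ITGA2B result was not tested.

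ITGB8, which with ITGAV binds latent TGF-beta, was named after its values were seen, since it passed only between treatments. It read 5.16, 5.40 and 5.00 with DMSO, 4.41, 4.11 and 4.28 with JQ1, 5.57, 5.94 and 5.81 with mocetinostat and 4.43, 4.52 and 4.43 with the combination. Arrays with JQ1, alone or combined, were the 6 lowest, and those with mocetinostat alone were the highest. ITGB8 was 2.83-fold higher with mocetinostat than with JQ1 (1.50, SE 0.13, adjusted p = 6.76e-06) and 2.48-fold lower with the combination than with mocetinostat (-1.31, adjusted p = 4.47e-05), while its difference from DMSO was -0.92 with JQ1 (1.89-fold, adjusted p = 0.000402). ITGB6, the epithelial partner of ITGAV, and ITGA8 had means under 4 and passed in none of the comparisons.

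Of the collagen receptors, ITGA2 alone passed, in the contrast of the single compounds and in that of the combination with mocetinostat. ITGA2, which pairs with ITGB1, read 9.57, 9.53 and 9.47 with DMSO, 8.77, 8.90 and 8.86 with JQ1, 10.05, 10.05 and 10.05 with mocetinostat and 8.88, 8.86 and 9.05 with the combination. The combination arrays overlapped those with JQ1, below DMSO, and the mocetinostat arrays were the highest. Against DMSO the differences were -0.68, 0.53 and -0.59 (adjusted p = 0.000158, 0.000605 and 0.000213), none of them 2-fold. ITGA2 was 2.31-fold higher with mocetinostat than with JQ1 (1.21, SE 0.09, adjusted p = 1.22e-06) and 2.17-fold lower with the combination than with mocetinostat (-1.12, adjusted p = 5.66e-06). ITGA10 and ITGA11 had means under 4 and did not pass. Of the subunits that bind fibronectin fragments and cell surface ligands, ITGA4 and its partner ITGB7 had means under 4 and did not pass, and ITGA9 differed by 0.93 with mocetinostat and by 0.60 with the combination, neither past the filter.

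Of the leukocyte integrins, ITGAX alone passed the filter, with mocetinostat. ITGAX, the alpha subunit known as CD11c, read 3.02, 2.57 and 2.95 with DMSO, 3.07, 2.73 and 2.63 with JQ1, 4.75, 4.65 and 4.98 with mocetinostat and 4.32, 3.23 and 4.28 with the combination. The mocetinostat arrays lay above all others, and 1 combination array lay well below the other two. ITGAX was 3.87-fold higher with mocetinostat (1.95, SE 0.26, adjusted p = 0.000133). With the combination it differed by 1.10 from DMSO (SE 0.26, adjusted p = 0.0068), over 2-fold but with an unadjusted p of 0.00137, which did not pass. Its beta partner ITGB2 differed by 0.59 with mocetinostat and 0.41 with the combination, and ITGAL, ITGAM and ITGAE differed by at most 0.31 from DMSO and did not pass. Among 4 measured leukocyte markers, the pan-leukocyte marker PTPRC read 2.62 ± 0.09 with DMSO and 2.47 ± 0.05 with mocetinostat, CD3E did not pass, CSF1R was down-regulated by JQ1 (-1.11) and CD14 was down-regulated by JQ1 (-1.18) and up-regulated by mocetinostat (1.11). The list averaged 4.12 to 4.18 with DMSO and 4.30 to 4.43 with mocetinostat, and its part in the ITGAX result was not tested.

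The combination was next set against each compound alone. Against mocetinostat 4 genes were down-regulated (ITGA2, ITGA5, ITGA6 and ITGB8, against 2.68% of all genes) and 0 were up-regulated (against 1.22%). The median difference of the 34 genes from mocetinostat was -0.23, beside -0.01 for all genes. Against JQ1, ITGB4 and LAMB1 were down-regulated (2 genes, against 3.23%) and ITGA2B was up-regulated (1 gene, against 4.46%), with a median of -0.01, and these shares are near those of all genes. Between the single compounds, mocetinostat gave higher signals than JQ1 for 5 genes (ITGA2, ITGA2B, ITGA7, ITGAX and ITGB8, against 6.32%) and lower signals for 3 (ITGB4, LAMB1 and LAMC1, against 2.89%). All 7 comparisons draw on the same 12 arrays and are not independent of each other.

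The combination was then set against the sum of the single log2 changes, the level expected if each compound changed the signal by the same factor in the presence of the other. For LAMB1, ITGB5 and LAMB2 the combination was close to that sum. LAMB1 was expected at 6.07 and measured at 6.12, a departure of 0.06 (SE 0.11, 95% interval -0.18 to 0.29), and ITGB5 was expected at 7.95 and measured at 7.96. ITGB3 alone passed, of 34 genes (against 2.91% of all genes below and 3.39% above the sum): it was expected at 10.67 and measured at 8.61, a departure of -2.06 (SE 0.13, adjusted p = 2.6e-06), or 4.17-fold less. It stayed past the filter when each array was left out in turn. Of the other genes, ITGA5 departed by -0.91 (SE 0.16, adjusted p = 0.0028) and ITGAV by -0.64 (SE 0.13, adjusted p = 0.00638), both below 2-fold, and 33 of 34 departures were under 1 in size. In sign 21 departures were below 0 and 13 above, with a median of -0.20 beside -0.03 for all genes.

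**Figure D3:**
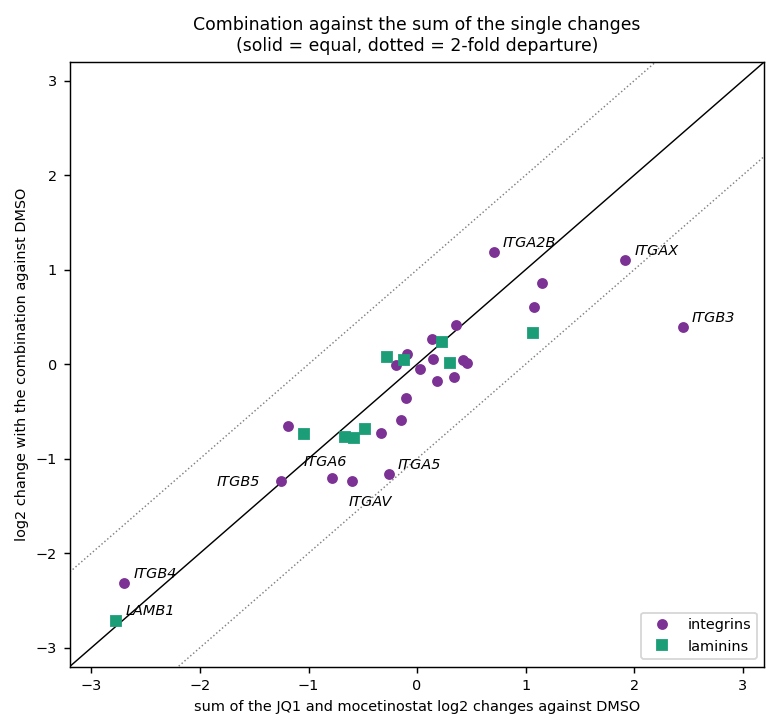
Log2 change with the combination against DMSO (y axis) plotted against the sum of the changes with JQ1 alone and mocetinostat alone (x axis) for 24 integrin and 10 laminin genes. Points on the solid line equal the sum; ITGB3, at a sum of 2.45 and a measured change of 0.39, is the one point outside the dotted 2-fold limits.

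Promoter sequences are shown for the members that the combination down-regulated and that had an entry in the RefSeq promoters used here. The start sites of genes lowered in different patterns can thus be set side by side. ITGB4, also down-regulated by the combination, had no entry and is not shown. Of the 34 genes 24 had an entry, each of 300 bases from 250 before to 50 after the start (GRCh38.p14), written on the strand of the gene. Capitals mark the letters of a TATA box (TATAAA), a GC box (GGGCGG), an AP-1 site (TGANTCA) or an E-box (CACGTG) on either strand. The windows are LAMB1 at chr7:108003112-108003411 on the minus strand, ITGA5 at chr12:54419217-54419516 on the minus strand, ITGA6 at chr2:172427086-172427385 on the plus strand, ITGAV at chr2:186589806-186590105 on the plus strand and ITGB5 at chr3:124901369-124901668 on the minus strand.
LAMB1: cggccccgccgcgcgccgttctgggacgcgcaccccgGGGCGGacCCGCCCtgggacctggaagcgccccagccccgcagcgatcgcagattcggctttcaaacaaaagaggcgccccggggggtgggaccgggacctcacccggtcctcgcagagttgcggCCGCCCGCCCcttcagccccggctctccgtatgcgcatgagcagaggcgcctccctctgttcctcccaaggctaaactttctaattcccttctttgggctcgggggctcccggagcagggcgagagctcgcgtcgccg
ITGA5: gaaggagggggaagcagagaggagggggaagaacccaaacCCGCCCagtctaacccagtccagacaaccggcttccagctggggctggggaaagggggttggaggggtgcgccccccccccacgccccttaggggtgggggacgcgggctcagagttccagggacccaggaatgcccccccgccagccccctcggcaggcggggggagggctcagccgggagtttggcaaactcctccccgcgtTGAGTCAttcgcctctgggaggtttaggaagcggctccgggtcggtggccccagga
ITGA6: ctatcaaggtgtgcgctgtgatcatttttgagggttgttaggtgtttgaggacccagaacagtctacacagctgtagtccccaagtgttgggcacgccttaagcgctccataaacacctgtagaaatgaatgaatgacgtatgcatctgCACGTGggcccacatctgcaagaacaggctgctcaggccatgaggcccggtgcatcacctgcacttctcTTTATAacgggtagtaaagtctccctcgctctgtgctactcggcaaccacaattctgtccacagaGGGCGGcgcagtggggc
ITGAV: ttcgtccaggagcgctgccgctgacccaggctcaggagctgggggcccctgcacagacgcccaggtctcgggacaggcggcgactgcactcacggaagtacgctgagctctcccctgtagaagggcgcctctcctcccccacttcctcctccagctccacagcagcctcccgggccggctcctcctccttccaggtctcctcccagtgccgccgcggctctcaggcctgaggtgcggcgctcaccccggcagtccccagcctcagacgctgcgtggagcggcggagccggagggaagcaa
ITGB5: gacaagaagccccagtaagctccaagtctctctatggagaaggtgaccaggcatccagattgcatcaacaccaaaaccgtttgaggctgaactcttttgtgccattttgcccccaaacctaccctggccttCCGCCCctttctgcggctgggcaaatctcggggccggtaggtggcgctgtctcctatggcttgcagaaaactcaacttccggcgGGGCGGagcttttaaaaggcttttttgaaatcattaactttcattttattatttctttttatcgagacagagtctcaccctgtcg

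The motifs differed between these windows. LAMB1 held 4 GC boxes, of which the last pair overlap each other, ITGB5 held 2 and ITGA5 and ITGA6 held 1 each, while ITGAV held none of the motifs searched. The ITGA5 window held an AP-1 site that begins 6 bases before the start, and the ITGA6 window held a TATA box on the reverse strand beginning 32 bases before it. Over the members with an entry, 13 of 24 held a GC box, against 45.0% of 35116 promoters, 4 held a CCAAT box (CCAAT, against 34.6%), and 1 each held a TATA box (11.5%), an AP-1 site (7.71%) and an E-box (7.26%). The median GC content was 61.3% for the members and 58.7% for all promoters. A match is a string of letters only, and the arrays hold no measurement at these sites.

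Inside the cell, integrins are tied to actin by focal adhesion adaptors, and of 25 measured adaptors the combination down-regulated 7 and up-regulated 2 (against 8.11% and 7.06% of all genes), with a median difference of -0.41 beside -0.00 for all genes. With JQ1 2 were down-regulated and 0 up-regulated (against 4.51% and 2.14%, median -0.04), and with mocetinostat 2 passed in each direction (against 5.50% and 7.08%, median -0.18). PXN, the scaffold paxillin, read 9.21, 9.06 and 9.14 with DMSO and 7.76, 7.76 and 7.80 with the combination, a difference of -1.37 (SE 0.09, adjusted p = 3.53e-07). Its single-compound readings, 9.18 to 9.37 with JQ1 and 8.55 to 8.73 with mocetinostat, lay above those of the combination. The tensins, which bind integrin tails and actin, went both ways: TNS2 (-1.91) and TNS3 (-1.78) were down-regulated and TNS1 (1.19) was up-regulated by the combination. LIMS2, ACTN1, SRC and FERMT1, a kindlin, were down-regulated as well (-1.32, -1.25, -1.27 and -1.21), and TLN2, a talin, was up-regulated (1.18). Several of these also passed with a single compound. With mocetinostat alone they were TNS2 (-1.84), TNS3 (-1.21), TNS1 (1.28) and TLN2 (1.10). With JQ1 alone they were TNS3 (-1.22) and FERMT1 (-1.55), the latter farther from DMSO than with the combination. PXN, LIMS2, ACTN1 and SRC passed against DMSO with the combination only.

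Of laminin's partners in the basement membrane, the perlecan gene HSPG2 passed upwards and the type IV collagen gene COL4A1 downwards with JQ1. Of 15 genes, all measured, 1 passed the filter upwards and 1 downwards with JQ1 (against 2.14% and 4.51% of all genes), 1 and 0 with mocetinostat (against 7.08% and 5.50%), and 0 and 2 with the combination (against 7.06% and 8.11%). The filter leaves out smaller differences such as those of AGRN, the basement membrane proteoglycan agrin, with the combination (0.84, adjusted p = 7.25e-06) and of COL4A1 with mocetinostat (-0.79, adjusted p = 4.92e-05), both named after their values were seen. COL4A1 and COL4A2, the chains of the commonest type IV collagen, were both down-regulated by the combination (-1.57 and -1.35, adjusted p = 1.23e-07 and 1.27e-07). JQ1 alone also down-regulated COL4A1 (-1.11, adjusted p = 6.01e-06). For COL4A2 the JQ1 difference was -0.99 (adjusted p = 4.97e-06), 1.98-fold and just under the limit. HSPG2, which encodes perlecan, read 7.22, 7.19 and 7.29 with DMSO, 9.05, 9.16 and 9.18 with JQ1, 7.92, 7.81 and 7.82 with mocetinostat and 7.37, 7.45 and 7.59 with the combination. Its JQ1 arrays stood above all others, a difference of 1.89 (adjusted p = 8.53e-08), and its combination departed from the sum of the single changes by -2.27 (adjusted p = 1.09e-06). NTN4, a netrin that binds laminin, was up-regulated by mocetinostat (1.58). Among 9 measured laminin receptors outside the integrins and their tetraspanin partners, 1, 1 and 2 were up-regulated (against 2.14%, 7.08% and 7.06% of all genes) and 2, 0 and 2 were down-regulated (against 4.51%, 5.50% and 8.11%) by JQ1, mocetinostat and the combination. BCAM, a laminin alpha chain receptor, was up-regulated by the combination (1.50) and the syndecan SDC4 by mocetinostat (1.81). The tetraspanin CD82 was down-regulated by JQ1 (-1.69) and by the combination (-1.51), and so was the syndecan SDC1 (-1.35 and -1.14).

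Of 21 measured matrix ligands of integrins, 2 passed the filter upwards and 3 downwards with JQ1 (against 2.14% and 4.51% of all genes, median -0.17), 3 and 1 with mocetinostat (against 7.08% and 5.50%, median 0.74 beside -0.01 for all genes), and 2 and 2 with the combination (against 7.06% and 8.11%, median -0.04). TNC, the matrix glycoprotein tenascin C, read 8.43, 8.40 and 8.48 with DMSO, 5.11, 4.91 and 5.30 with JQ1, 9.71, 9.58 and 9.65 with mocetinostat and 6.72, 6.61 and 6.65 with the combination. Its 4 groups did not overlap: it was down-regulated by JQ1 (-3.33) and by the combination (-1.77) and up-regulated by mocetinostat (1.21). THBS2, a thrombospondin, was up-regulated by mocetinostat (2.97). COL6A3 and LTBP1, which holds latent TGF-beta in the matrix, were down-regulated by JQ1 (-1.81 and -1.94). With the combination COL6A3 was down-regulated as well (-1.81), while LTBP1 differed by -0.51 and did not pass. Of 6 measured counter-receptors on cell surfaces, JQ1 down-regulated 2 (against 4.51% of all genes), mocetinostat up-regulated 2 (against 7.08%) and the combination down-regulated 1 (against 8.11%). ICAM1, the ligand of leukocyte integrins, was down-regulated by JQ1 (-2.60) and up-regulated by mocetinostat (1.14). ICAM3 was down-regulated by JQ1 and by the combination (-1.04 in both), and CDH1, E-cadherin, which ITGAE binds, was up-regulated by mocetinostat (2.78, adjusted p = 9.52e-07).

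**Figure D4:**
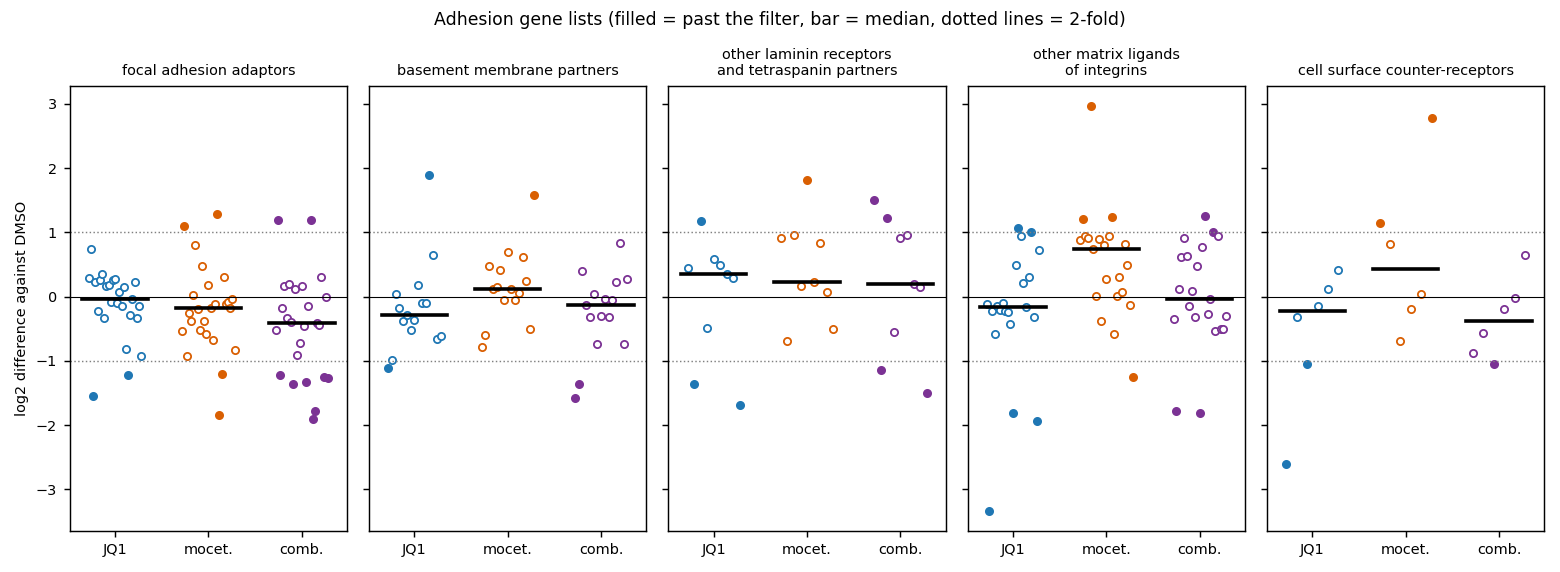
Log2 difference from DMSO (y axis) for the measured genes of 5 adhesion gene lists, by treatment (x axis); filled points passed the filter and bars are medians. The focal adhesion adaptors have 7 filled points below 0 with the combination, and the matrix ligands have the highest median with mocetinostat (0.74).

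Smaller differences were counted at an adjusted p under 0.05 with no minimum fold. With JQ1, 4 of the 34 genes were higher and 9 lower (against 13% and 14.1% of all genes), with mocetinostat 10 and 7 (against 20.2% and 18.2%), and in the combination arrays 4 and 14 (against 20.3% and 21.2%). The 14 lower genes are 41.2% of the 34, and beside the 6 that passed the filter they are ITGA2, ITGA10, ITGB1, ITGB8, LAMA4, LAMA5, LAMB3 and LAMC1. The combination was lower than JQ1 for 11 genes and higher for 4 (against 16.2% and 14.8%), and lower than mocetinostat for 11 and higher for 1 (against 13.2% and 8.96%). Mocetinostat was higher than JQ1 for 12 genes and lower for 8 (against 18.2% and 16.1%), and 5 genes departed below the sum of the single changes and 0 above it (against 9.77% and 8.08%). With the 2-fold limit added, 2 genes were higher with the combination than with DMSO (against 7.19%) and 2 than with JQ1 (against 4.58%), which are ITGA2B and ITGAX.

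In all, 13 of the 34 genes passed in at least 1 of the 7 comparisons and 21 in none. Of those 21, 14 had means between 2.64 and 3.92 over the arrays, and their differences from DMSO were at most 1.00 in size. The other 7 were ITGA3, ITGA9, ITGB1, ITGB2, LAMA5, LAMB2 and LAMB3. Scaling each array to the mean of 29 ribosomal protein genes, in place of the deposited scale, moved the median of all genes by -0.13, -0.17 and -0.32 for JQ1, mocetinostat and the combination against DMSO. On that scale 11 genes were down-regulated by the combination in place of 6, the added ones being ITGB8, LAMA4, LAMA5, LAMB3 and LAMC1, and the median of the 34 genes with mocetinostat was -0.10 in place of 0.07. Before scaling, these ribosomal protein genes had a median difference from DMSO of 0.29 with the combination, beside -0.00 for all genes. Of the 29, the combination up-regulated 2 and down-regulated 0 (against 7.06% and 8.11% of all genes). Which scale is the better one was not tested.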

How the data were processed

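Total RNA of the 12 samples was hybridised to the array, and the authors deposited log2 signals summarised by RMA (version not given in the sources used here). RMA equalises the distributions of the arrays, so that a change shared by most transcripts would not show. Groups came from sample titles and source names. The study's methods name 3 µM mocetinostat where the labels name 3.17 µM. Of 53617 probe sets 23866 carried 1 symbol, 1852 several and 27899 none, and a gene was represented by its brightest single-symbol probe set. All arrays were fitted with limma (version 3.58.1, R 4.3.3), a mean per group and no further term, with 8 residual degrees of freedom and a prior of 3.10. P-values were adjusted by Benjamini-Hochberg over all probe sets. The scripts were tested on simulated data. The number of arrays limits the precision. Members and lists were chosen with earlier results of these data known. Genes are given in every array when they passed against DMSO or in the departure from the sum, and up to 4 genes of each list are named by size of change, with further adaptors named to complete a count. ITGA2, ITGB8 and LAMC1, which passed only between treatments, were named after their values were seen. Same-numbered replicates did not deviate together.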

Additional observations from a re-analysis of the deposited data

Results flagged for a closer look

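Among the integrins and laminins, ITGB3 was the gene whose response to one compound differed past the filter with the presence of the other. The combination departed from the summed single log2 changes by -2.06 (SE 0.13, adjusted p = 2.6e-06 by limma), with 9.61 ± 0.07 under JQ1, 9.28 ± 0.04 under mocetinostat, 8.61 ± 0.13 under the combination and 8.22 ± 0.04 under DMSO (SD, n = 3 arrays each). On the arrays whose titles carry the number 5, the one number that all 4 treatments share, the departure was -1.83, a value with no test. Departures past the filter were also found among the other adhesion genes, and ITGB3 is not alone in this: below the sum lay CDH1 (-2.55), HSPG2 (-2.27), THBS2 (-1.89), SDC4 (-1.49), FN1 (-1.10), ICAM2 (-1.07), CCN2 (-1.06) and PXN (-1.01), and above it LTBP1 (1.57) and FERMT1 (1.26).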

How the results depend on the processing

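The 30 differences that passed the filter kept their sign under every alternative that could be run for them; ITGAX, with a mean under 4, was left out of the alternative that drops such probe sets, and the departure of ITGB3 was not refitted with only the groups compared. ITGA2B with mocetinostat lost the filter with an unmoderated model (1.04), with the title number as a block (1.07), with quantile normalization (0.93), with array weights (0.99), and without mocetinostat replicate 1 (1.01) or 2 (1.03), beside the cases in the report. ITGA2B with the combination lost it when only the groups compared were fitted (1.19). On the arrays with title number 5 alone, 14 of the 30 moved by more than 1 SD. This set holds 1 array per group, except for mocetinostat with replicates 1 and 3, and has no test. There, ITGA2B with the combination was 1.88, and ITGA2 for the combination against mocetinostat was just under 2-fold. Counts moved as follows, with higher genes before lower ones. With only the groups compared, 0 genes were higher with the combination. Scaled to ribosomal protein genes, 1 gene was lower with JQ1, 2 were higher with mocetinostat, 0 higher and 11 lower with the combination, and 6 lower with the combination than with JQ1. At an adjusted p under 0.05 with no minimum fold, the counts were 4 and 9 with JQ1, 10 and 7 with mocetinostat, 4 and 14 with the combination, 4 and 11 for the combination against JQ1, 1 and 11 against mocetinostat, 12 and 8 for mocetinostat against JQ1, and 5 below the sum. With the 2-fold limit added, 2 were higher with the combination than with DMSO and 2 than with JQ1, and with a variance trend 2 than with JQ1. Averaging each gene's probe sets changes no value of the 34 genes, which have 1 each, but the refit on genes in place of all probe sets gave 2 higher with the combination than with DMSO and 2 than with JQ1. The replicate numbers do not pair the arrays (18 same-numbered pairs, correlation -0.09 to 0.04, 3 of 12 arrays closest to their own number); with them as a replicate block, 2 genes were higher with the combination than with DMSO and 2 than with JQ1, and no call was lost.

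Leaving out each array in turn gave ranges of 1 to 1 higher and 0 to 1 lower for JQ1, 2 to 6 higher and 2 to 3 lower for mocetinostat, 0 to 2 higher and 6 to 6 lower for the combination, 1 to 2 higher and 2 to 5 lower for the combination against JQ1, 0 to 0 higher and 4 to 5 lower against mocetinostat, 5 to 7 higher and 3 to 3 lower for mocetinostat against JQ1, and 1 to 1 below the sum. The arrays behind the wider moves were DMSO replicate 2 (0 higher with the combination), DMSO replicate 3 (1 lower with JQ1), JQ1 replicate 2 (5 lower for the combination against JQ1), mocetinostat replicate 1 (2 higher with mocetinostat), combination replicate 1 (2 higher against JQ1), combination replicate 2 (2 higher against DMSO and against JQ1) and combination replicate 3 (4 lower against JQ1). The cause of these moves was not tested. Low signals limit what can be seen for the 15 genes with a mean under 4.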
